A study of Mus musculus with 7 samples.

Results

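Protein phosphatase 1 (PP1) is one of the main serine/threonine phosphatases of the cell, and the genes of its catalytic subunits and of the regulatory subunits named after it were examined here in neonatal mouse ventricle. Members were taken as all rows of the expression table whose symbol is Ppp1ca, Ppp1cb or Ppp1cc, or starts with Ppp1r and a number, which gave 41 of 17404 genes (3 catalytic and 38 regulatory). The table holds 7 RNA-Seq libraries of ventricles from untreated pups at postnatal day 4 (P4), 3 from BALB/cByJ and 4 from BALB/cJ, and each library was made from a pool of 3 to 4 hearts by the methods of the study, which gives a larger number elsewhere. The strains are inbred sister lines. BALB/cByJ carries the Cyth1 deletion described in the study and BALB/cJ carries a retroviral insertion in Zhx2, and no PP1 gene was manipulated in either. The sex of the pups is not given. The study sought expression differences between these strains at the time when cardiomyocytes become polyploid.

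PP1 holds little selectivity in its catalytic subunit. The catalytic subunits α, β and γ bind 1 of many regulatory subunits, most of them through a short conserved docking motif, and these target the enzyme to glycogen, myosin, chromatin or the endoplasmic reticulum, or inhibit it. In cardiomyocytes PP1 removes the phosphates that protein kinase A (PKA) places on calcium-handling and contractile proteins. The PKA-regulated inhibitors Ppp1r1a (inhibitor-1) and Ppp1r1b (DARPP-32) restrain PP1 while PKA is active. Of these, DARPP-32 is best known from the striatum and not from the heart.

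Expression values are normalized for depth and transcript length, so levels can be compared between genes, but the number of reads behind them is not known. They summed to between 543023 and 628977 per library, and each library had 11815 to 11979 genes at 1 or more. The 8 cardiomyocyte markers examined, among them Myh6 and Tnnt2, were all expressed, with a summed level of 39028 to 47219 in BALB/cByJ and 35089 to 40634 in BALB/cJ. The largest part of that sum was Myl2, at 19318 to 25773 in BALB/cByJ and 18096 to 20585 in BALB/cJ. The summed level of 4 Y-linked genes was 80.2 to 128 in BALB/cByJ and 0.04 to 37.6 in BALB/cJ, so the sex makeup of the pools and the strain cannot be told apart fully. In a pool of tissue, fewer cells of a type and less RNA per cell cannot be told apart either. The summed level of 6 erythroid markers was 4344 to 5373 in BALB/cByJ and 6357 to 14574 in BALB/cJ. That of 8 thymocyte markers was 0.53 to 0.71 and 0.75 to 13.8. The sums of endothelial, fibroblast, macrophage and skeletal muscle markers overlapped between strains. The part of such cells in the levels of PP1 genes was not tested. The comparison of strains used limma on log2(value + 1), for the 12715 genes with a mean value of at least 0.5. A gene is called at a Benjamini-Hochberg adjusted p under 0.05 over all of these genes, and log2 fold changes above 0 mean more RNA in BALB/cByJ.

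Of the 41 members, 35 reached the level needed for a test. Their mean levels over all libraries ran from 353 for Ppp1ca to 1.26 for Ppp1r3f. The 6 others (Ppp1r1c, Ppp1r3e, Ppp1r27, Ppp1r32, Ppp1r36 and Ppp1r42) had no value above 0.72 in any library and were not compared between strains. The plot of levels by library shows that the order of the genes spans several powers of 10, while the libraries of a gene lie close together. Among tested members the median coefficient of variation between pools was 10.4% in BALB/cByJ and 9.20% in BALB/cJ.

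**Figure D1:**
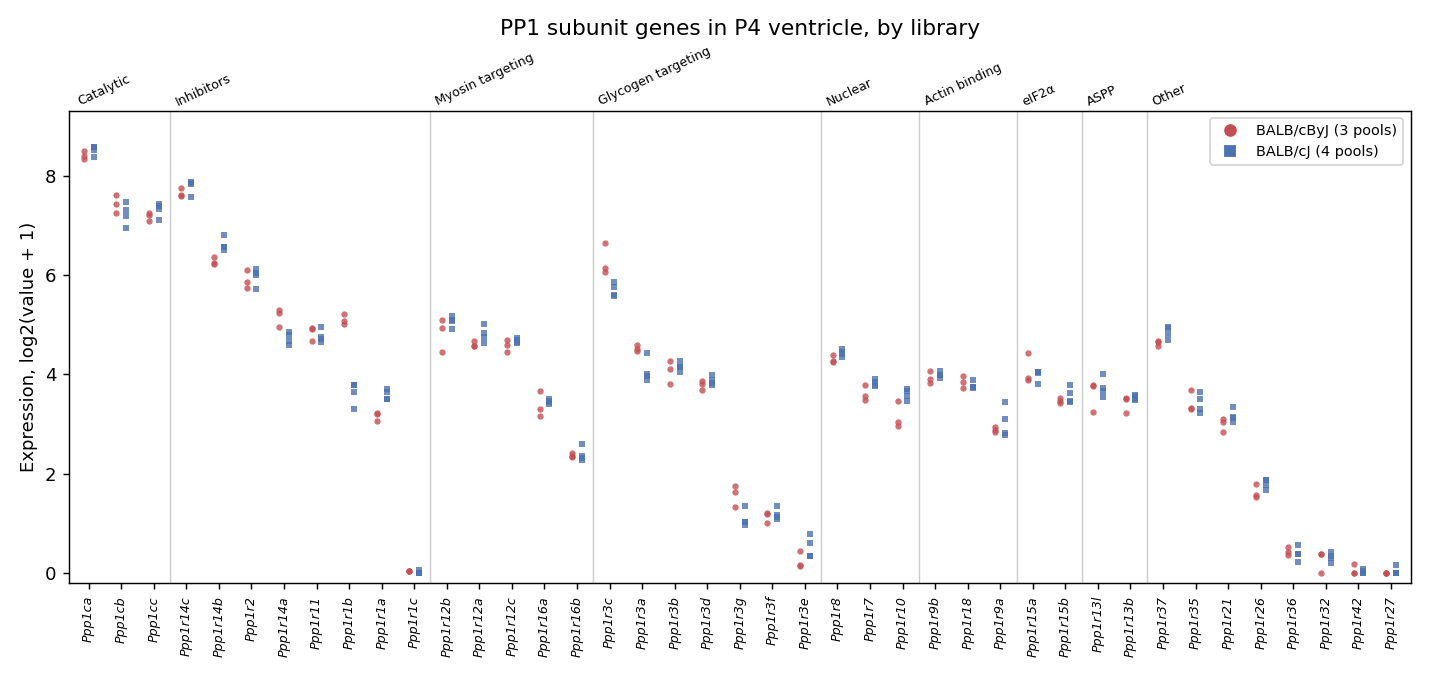
Expression of the 41 PP1 genes on the log2(value + 1) scale, grouped by role and ordered by mean level. Circles are the 3 BALB/cByJ pools and squares the 4 BALB/cJ pools. The catalytic subunits and Ppp1r14c lie highest, and the strains stand clearly apart at Ppp1r1b.

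The strain comparison called 2 of the 35 tested members (5.71%), both higher in BALB/cByJ, against 1.65% of all tested genes (0.771% higher and 0.881% lower). They were Ppp1r1b and, with a call that most left-out libraries ended, the glycogen-targeting subunit gene Ppp1r3c. The study already lists Ppp1r1b as higher in BALB/cByJ from these same libraries. Because the members were chosen with earlier results of these data known, the share called is only a description. An unadjusted p under 0.05 was found for 9 members (5 higher and 4 lower), against 18.3% of all tested genes (5.06% higher and 13.3% lower). The strains did not overlap in 7 members (4 higher and 3 lower in BALB/cByJ), against 17.0% (4.33% and 12.6%). Those 7 are 20% of the tested members, so the share over both directions is near that of the table as a whole. In the table most such genes were lower, but the split of 7 members by direction was not tested and is only a description. The 9 with an unadjusted p under 0.05 are 25.7% of the tested members. The median log2 fold change of the members was -0.10, with 25 below 0 and 10 above, and that of all tested genes was -0.07, with 8292 below 0 and 4423 above.

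The catalytic subunits are encoded by Ppp1ca, Ppp1cb and Ppp1cc, and none of them was called. Ppp1ca had the highest level of the family in every library. The BALB/cByJ pools had 357, 335 and 322, and the BALB/cJ pools 332, 380, 380 and 367, in the order of their numbers, as for the other genes. The values of the strains overlapped. The log2 fold change was -0.11 with a 95% interval of -0.34 to 0.125 (limma adjusted p = 0.622). Ppp1cb, whose product is the catalytic subunit of myosin phosphatase, was at 194, 172 and 152 in BALB/cByJ and at 123, 145, 157 and 177 in BALB/cJ. Again the strains overlapped, with a log2 fold change of 0.20 and an interval of -0.08 to 0.48 (limma adjusted p = 0.424). Ppp1cc was at 146, 150 and 135 in BALB/cByJ and at 136, 167, 159 and 172 in BALB/cJ. Its log2 fold change was -0.14, with an interval of -0.37 to 0.10 (limma adjusted p = 0.524). The direction of Ppp1cb turned when the Y-linked sum was added as a covariate (log2 fold change -0.10), and the others kept theirs in each alternative run.

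Set against the sum of these catalytic genes, Ppp1ca took 50.9% to 56.1% of the level in the 7 libraries. Ppp1cb took 24.9% to 27.9% in BALB/cByJ and 20.8% to 24.8% in BALB/cJ. Ppp1cc took 20.9% to 22.9% and 22.8% to 24.1%. Ppp1cb thus ranked above Ppp1cc in all 3 BALB/cByJ pools but in only 1 of the 4 BALB/cJ pools. These shares are given as a description, and a share can move through any of the genes in the sum. The summed regulatory level was 1.24 to 1.29 times the summed catalytic level in BALB/cByJ and 1.197 to 1.30 times in BALB/cJ. Ppp1ccb, a gene on chromosome 7 that RefSeq also lists under the name of Ppp1cc, was at 14.3, 6.58 and 22.4 in BALB/cByJ and at 11.8, 0.21, 13.4 and 11.9 in BALB/cJ. Reads may be split between it and Ppp1cc. The sum of both was 157 to 160 in BALB/cByJ and 148 to 184 in BALB/cJ, so that the strains overlapped for the sum as well. In RefSeq, Ppp1ca also overlaps Rad9a, Ppp1r15a overlaps Tulp2 and Ppp1r3d overlaps Fam217b, so a part of their reads is uncertain. Another RefSeq gene overlaps 15 members in all. Among them, lncRNA genes overlap Ppp1r12b (Gm32670, 31595 bases), Ppp1r9a (Gm52886, 8627 bases) and Ppp1r3g (Gm30127, 5182 bases).

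**Figure D2:**
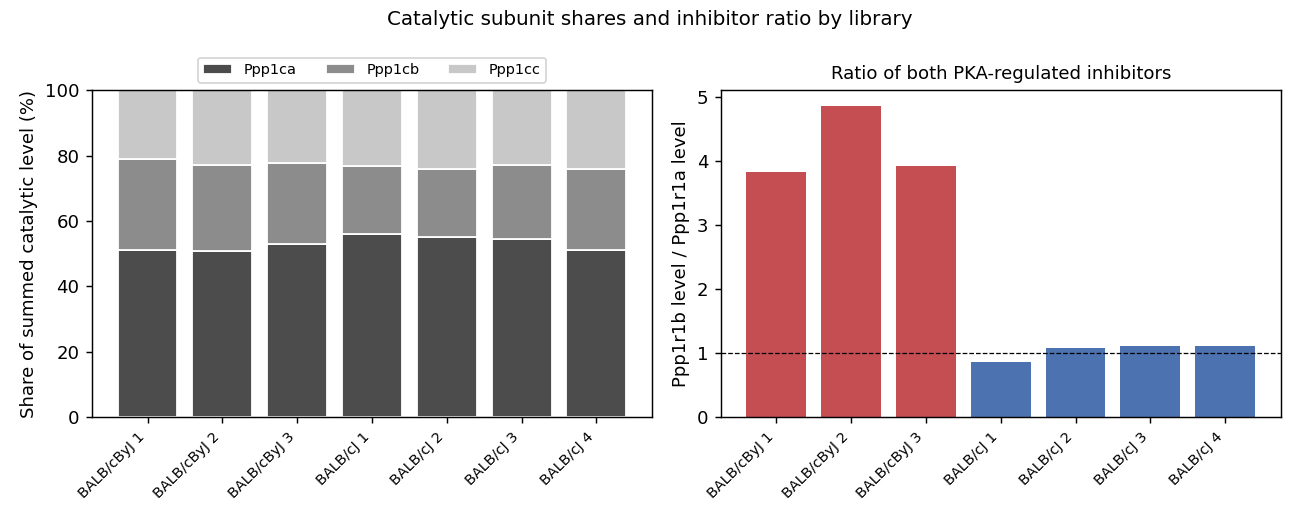
Left, the share of Ppp1ca, Ppp1cb and Ppp1cc in their summed level (%) for each library. Right, the level of Ppp1r1b divided by that of Ppp1r1a, with a dashed line at 1. The ratio is 3.83 to 4.86 in the BALB/cByJ pools and 0.855 to 1.12 in the BALB/cJ pools.

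Ppp1r1b encodes DARPP-32, which inhibits PP1 once PKA has phosphorylated it and is best known from dopamine signaling in the striatum. The gene has the ID 19049 and lies on chromosome 11 of GRCm38 (mm10), from 98348406 to 98357796. The BALB/cByJ pools 1 to 3 had expression values of 31.3, 36.0 and 32.7, and the BALB/cJ pools 1 to 4 had 8.88, 12.8, 12.8 and 11.6. Every BALB/cByJ pool lay above every BALB/cJ pool. The means were 33.3 ± 2.39 (SD, n = 3) and 11.5 ± 1.87 (SD, n = 4), a ratio of 2.89. This is 1.46 on the log2(value + 1) scale (standard error 0.12, 95% interval 1.198 to 1.73, limma adjusted p = 6.53e-06). The gene was called in each of the 14 alternatives run, with an adjusted p of 2.24e-06 to 0.00197, including 8.43e-04 when the Y-linked sum was added as a covariate. In RefSeq the lncRNA 1700003D09Rik overlaps Ppp1r1b by 7079 bases, and the sources do not say whether reads were counted by strand, so reads from both genes cannot be told apart.

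Inhibitor-1, encoded by Ppp1r1a on chromosome 15, is the relative of DARPP-32 that is known as the PKA-regulated PP1 inhibitor of the heart. It was at 8.17, 7.40 and 8.33 in BALB/cByJ and at 10.4, 11.98, 11.5 and 10.4 in BALB/cJ. The BALB/cJ pools were all higher, but the log2 fold change of -0.43 was not called (standard error 0.11, limma adjusted p = 0.057, with 0.0493 to 0.227 in other settings). The level of Ppp1r1b was thus 3.83, 4.86 and 3.93 times that of Ppp1r1a in the BALB/cByJ pools and 0.855, 1.07, 1.12 and 1.11 times in the BALB/cJ pools. In BALB/cJ both genes were at about the same level. By the BALB/cByJ means, Ppp1r1b stood between Ppp1r14a and Ppp1r11 in the order of inhibitor levels. In BALB/cByJ 2, however, Ppp1r1b (36.0) was above Ppp1r14a (29.98). Relative to the summed catalytic level, Ppp1r1b was at 4.49% to 5.47% in BALB/cByJ and 1.503% to 1.86% in BALB/cJ.

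The inhibitors with the most RNA were others. Ppp1r14c, which encodes an inhibitor that is potentiated by protein kinase C (KEPI), was second in level to Ppp1ca among all members. It was at 194, 216 and 192 in BALB/cByJ and at 190, 228, 225 and 234 in BALB/cJ, with a log2 fold change of -0.13 that was not called (limma adjusted p = 0.567). Its relative Ppp1r14b (PHI-1) was at 75.1, 73.2 and 81.0 in BALB/cByJ and at 89.7, 110, 93.3 and 93.2 in BALB/cJ. The strains did not overlap there, but the log2 fold change of -0.33 was not called (limma adjusted p = 0.118). Ppp1r14a encodes CPI-17, the inhibitor of myosin phosphatase known from smooth muscle. It was at 38.5, 29.98 and 36.7 in BALB/cByJ and at 24.6, 27.9, 26.7 and 23.3 in BALB/cJ. Every BALB/cByJ pool was higher, with a log2 fold change of 0.43 that missed the threshold (limma adjusted p = 0.0699) and passed it with TMM scaling (0.0427) and without BALB/cByJ 2 (0.0472). The summed level of 6 smooth muscle markers ran the other way, at 378 to 412 in BALB/cByJ and 583 to 987 in BALB/cJ. Most of it was Acta2, at 306 to 339 in BALB/cByJ and 495 to 885 in BALB/cJ. Of the 5 markers tested, 2, Acta2 and Cnn1, were called lower in BALB/cByJ. The 3 others, Tagln (log2 fold change 0.07), Myh11 (-0.31) and Smtn (-0.19), overlapped between strains and were not called. The call of Acta2 was lost without BALB/cByJ 3 (limma adjusted p = 0.0711), with no filter (0.0889) and with the Y-linked sum as covariate (0.174). That of Cnn1 was lost with no filter (0.0606) and with that covariate (0.0896). The part of smooth muscle content in the level of Ppp1r14a was not tested. Ppp1r2 (inhibitor-2) was at 52.1 to 67.7 in BALB/cByJ and 51.6 to 68.8 in BALB/cJ, and its 8 annotated pseudogenes in RefSeq make its reads less certain. Ppp1r11 (inhibitor-3) was at 24.5 to 29.8 and 24.1 to 30.1. Neither was called (limma adjusted p = 0.791 and 0.728). In all, of 7 inhibitors tested 1 was called higher and 0 lower, beside 0.771% and 0.881% of all tested genes. The summed level of the inhibitors was 432 to 445 in BALB/cByJ and 399 to 484 in BALB/cJ. Ppp1r1b made up 7.04% to 8.10% of that sum in BALB/cByJ and 2.23% to 2.80% in BALB/cJ.

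**Figure D3:**
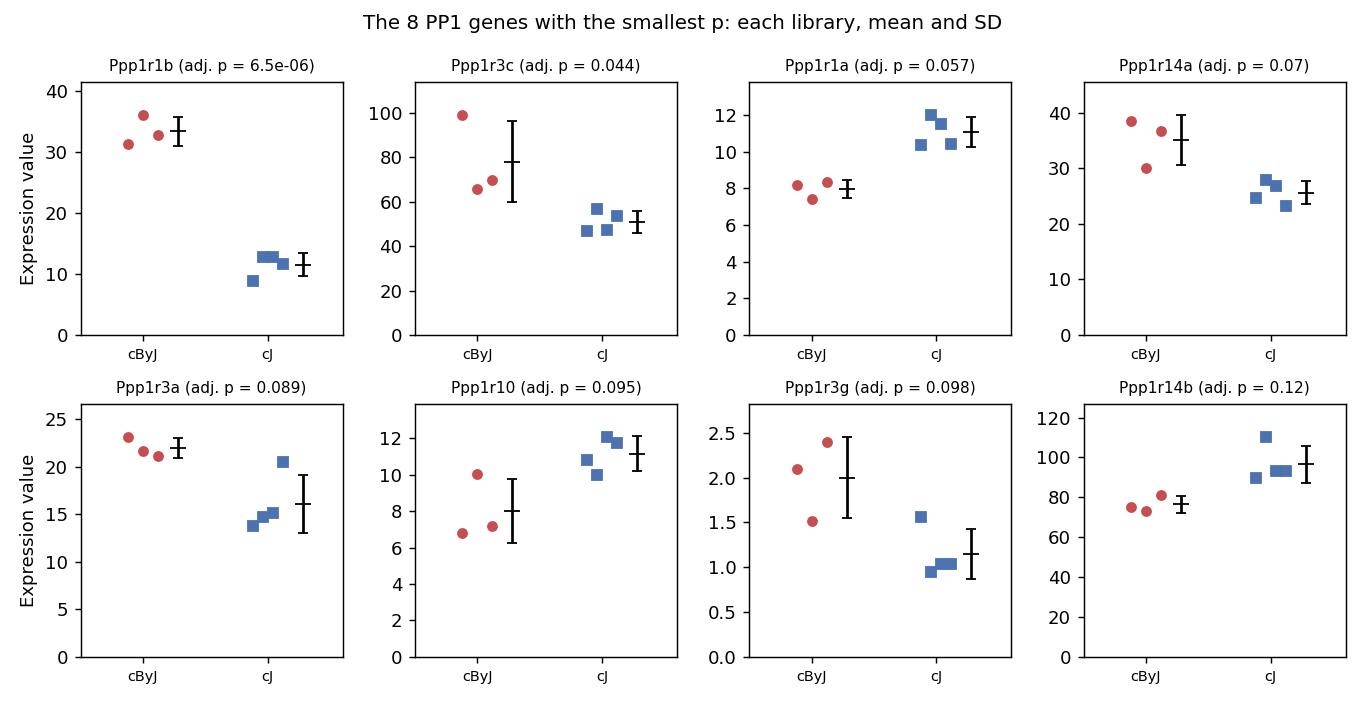
Expression values per library of the 8 PP1 genes with the smallest p, with the mean and SD of each strain (3 BALB/cByJ and 4 BALB/cJ pools). Ppp1r1b is at 31.3 to 36.0 against 8.88 to 12.8. Ppp1r10 and Ppp1r3g overlap between strains.

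The glycogen-targeting subunits bring PP1 to glycogen, where it activates glycogen synthase and inactivates phosphorylase. Ppp1r3c, which encodes the widely expressed form (protein targeting to glycogen), was at 98.8, 65.6 and 69.6 in BALB/cByJ and at 46.7, 56.8, 47.2 and 53.4 in BALB/cJ. BALB/cByJ 1 was the highest, and the other BALB/cByJ pools also lay above each BALB/cJ pool. The means were 78.0 ± 18.1 (SD, n = 3) and 51.0 ± 4.91 (SD, n = 4), with a log2 fold change of 0.58 (standard error 0.13, 95% interval 0.30 to 0.87, limma adjusted p = 0.0443). The call did not survive when BALB/cByJ 1 (adjusted p = 0.194) or BALB/cByJ 3 (0.0945) was omitted, nor when pool 1 (0.0662), 2 (0.0506), 3 (0.102) or 4 (0.0905) of BALB/cJ was, nor with the Y-linked sum as covariate (0.255, log2 fold change 0.45). These p are from limma.

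Ppp1r3a encodes the muscle form (GM). It was at 23.2, 21.7 and 21.2 in BALB/cByJ and at 13.8, 14.7, 15.2 and 20.6 in BALB/cJ, where BALB/cJ 4 lay close to the other strain. The strains did not overlap, and the log2 fold change of 0.45 was not called (limma adjusted p = 0.089), but it passed without BALB/cJ 4 (0.0286) and with TMM scaling (0.0404). With the Y-linked sum as covariate it was 0.22 (0.481). Ppp1r3g, a subunit known from mouse liver, was low, at 2.09, 1.51 and 2.40 in BALB/cByJ and 1.56, 0.95, 1.04 and 1.04 in BALB/cJ. The strains overlapped and its log2 fold change of 0.48 was not called (limma adjusted p = 0.0978). Ppp1r3b, the form best known from liver, and Ppp1r3d were at 13.0 to 18.2 and 11.8 to 13.6 in BALB/cByJ and at 15.6 to 18.4 and 12.8 to 14.9 in BALB/cJ. Neither was called (limma adjusted p = 0.666 and 0.68). The summed glycogen-targeting level was 155, 119 and 121 in BALB/cByJ and 93.4, 103, 95.3 and 110 in BALB/cJ, of which Ppp1r3c made up 48.5% to 63.6%. Of the 6 tested, 1 was called higher and 0 lower, beside 0.771% and 0.881% of all tested genes. The log2 fold change was above 0 for 3 (Ppp1r3c, Ppp1r3a and Ppp1r3g) and below 0 for 3. The median of the 6 tested was 0.20, beside -0.07 for all tested genes. It lies midway between members on either side of 0 and describes none of them.

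Promoter sequences from RefSeq (GRCm38.p6) were found for 33 of the 41 members. Those of Ppp1r3c and Ppp1r3a, the glycogen-targeting genes whose strains did not overlap, are shown as the 250 bases before the annotated start, so that the makeup of both can be compared. Capitals mark the letters CACGTG (an E-box), the letters CCAAT of the box of that name, and the letters TATAAA of the TATA box, on either strand. The letters GGGCGG of the GC box were searched too, and neither sequence held them. No entry was matched for Ppp1r1b.
Ppp1r3c, chr19:36736605-36736854, minus strand: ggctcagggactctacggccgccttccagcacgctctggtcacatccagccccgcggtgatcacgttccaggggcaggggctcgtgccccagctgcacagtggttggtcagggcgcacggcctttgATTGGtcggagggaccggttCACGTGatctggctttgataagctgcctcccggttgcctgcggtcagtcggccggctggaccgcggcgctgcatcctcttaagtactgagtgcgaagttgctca
Ppp1r3a, chr6:14755275-14755524, minus strand: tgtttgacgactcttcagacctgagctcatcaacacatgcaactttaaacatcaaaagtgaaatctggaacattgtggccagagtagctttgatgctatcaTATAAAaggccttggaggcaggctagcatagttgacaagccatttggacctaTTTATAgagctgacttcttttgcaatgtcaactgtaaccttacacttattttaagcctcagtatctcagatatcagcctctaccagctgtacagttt
The upstream sequence of Ppp1r3c had 64.4% G and C and held CACGTG at 104 bases and the CCAAT box, on the other strand, at 124 bases before the start. That of Ppp1r3a had 40.4% and held the TATA box at 149 and, on the other strand, at 97 bases before it. Of 32851 promoters of this length in the reference, 6.02% held CACGTG, 33.8% the CCAAT box, 12.4% the TATA box and 32.7% the GC box. Of the 41 entries of members, 25 (61.0%) held the GC box, 3 held CACGTG, 11 the CCAAT box and 5 the TATA box. These entries come from 33 members, so some genes are counted more than once and the shares are not shares of genes. The general E-box CANNTG, not marked by capitals and matched also by the narrower one, was at 161 and 104 bases in Ppp1r3c and at 217, 109, 69 and 14 bases in Ppp1r3a, and 66.2% of all promoters held it. The letters ACGTG, also not marked, were at 189, 104 and 103 bases in Ppp1r3c and were not found in Ppp1r3a, and 16.6% of all promoters held them. The cAMP response element letters TGACGTCA were found in neither, and in 1.55% of all promoters. A match of letters is a description of the reference and not of binding, and the strains' own sequences were not analysed here.

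The myosin-targeting subunits direct the β catalytic subunit to myosin light chain. Of the 5 tested by limma, 0 were called and 0 had an unadjusted p under 0.05. Ppp1r12b encodes the form known from heart and skeletal muscle (MYPT2), and was at 29.6, 33.2 and 20.9 in BALB/cByJ and at 35.2, 29.2, 32.5 and 33.2 in BALB/cJ. BALB/cByJ 3 was lowest, and the strains overlapped (log2 fold change -0.24, limma adjusted p = 0.365). Without that pool the log2 fold change was -0.05, and without BALB/cByJ 2 it was -0.37. Ppp1r12a (MYPT1) was at 22.6 to 24.6 in BALB/cByJ and 23.9 to 31.2 in BALB/cJ, and Ppp1r12c at 20.9 to 24.8 and 23.7 to 25.6 (limma adjusted p = 0.334 and 0.602). The levels of these targeting subunits were thus close to each other. Ppp1r16a and Ppp1r16b, which encode membrane-associated members, were lower, with means over all libraries of 9.79 and 4.22.

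The nuclear subunits Ppp1r8 (NIPP1), Ppp1r7 (SDS22) and Ppp1r10 (PNUTS) regulate PP1 at chromatin, in mitosis and in transcription. Ppp1r10 was at 6.82, 10.02 and 7.19 in BALB/cByJ and at 10.8, 9.99, 12.1 and 11.8 in BALB/cJ. The strains overlapped through BALB/cByJ 2 and BALB/cJ 2. The log2 fold change was -0.45 and was not called (standard error 0.13, limma adjusted p = 0.095), but it passed without BALB/cByJ 2 (0.0412). Ppp1r7 was at 10.3 to 12.8 in BALB/cByJ and 12.5 to 14 in BALB/cJ, and Ppp1r8 at 18.0 to 19.9 and 19.5 to 21.9 (limma adjusted p = 0.303 and 0.483).

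The remaining members were not called. The actin-binding scaffolds Ppp1r9b (spinophilin), Ppp1r18 (phostensin) and Ppp1r9a (neurabin) had means over all libraries of 14.7, 13.0 and 6.95. Ppp1r15a (GADD34), the stress-induced subunit that directs PP1 to the translation factor eIF2α, was at 20.5, 13.9 and 14.1 in BALB/cByJ and at 15.6, 15.6, 15.4 and 13.0 in BALB/cJ. BALB/cByJ 1 was the highest, and the other pools of that strain lay among those of BALB/cJ. Its constitutive counterpart Ppp1r15b (CReP) was at 9.75 to 10.51 and 9.91 to 12.7. Ppp1r13l and Ppp1r13b, of the ASPP family of p53-binding proteins, had means over all libraries of 11.9 and 10.2. Ppp1r37 was lower in every BALB/cByJ pool (22.6 to 24.6, against 24.8 to 29.97), with a log2 fold change of -0.22 (limma adjusted p = 0.268). Ppp1r35, which encodes a centrosomal protein, Ppp1r21, which acts in endosomes, and Ppp1r26 had log2 fold changes between -0.17 and 0.02.

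**Figure D4:**
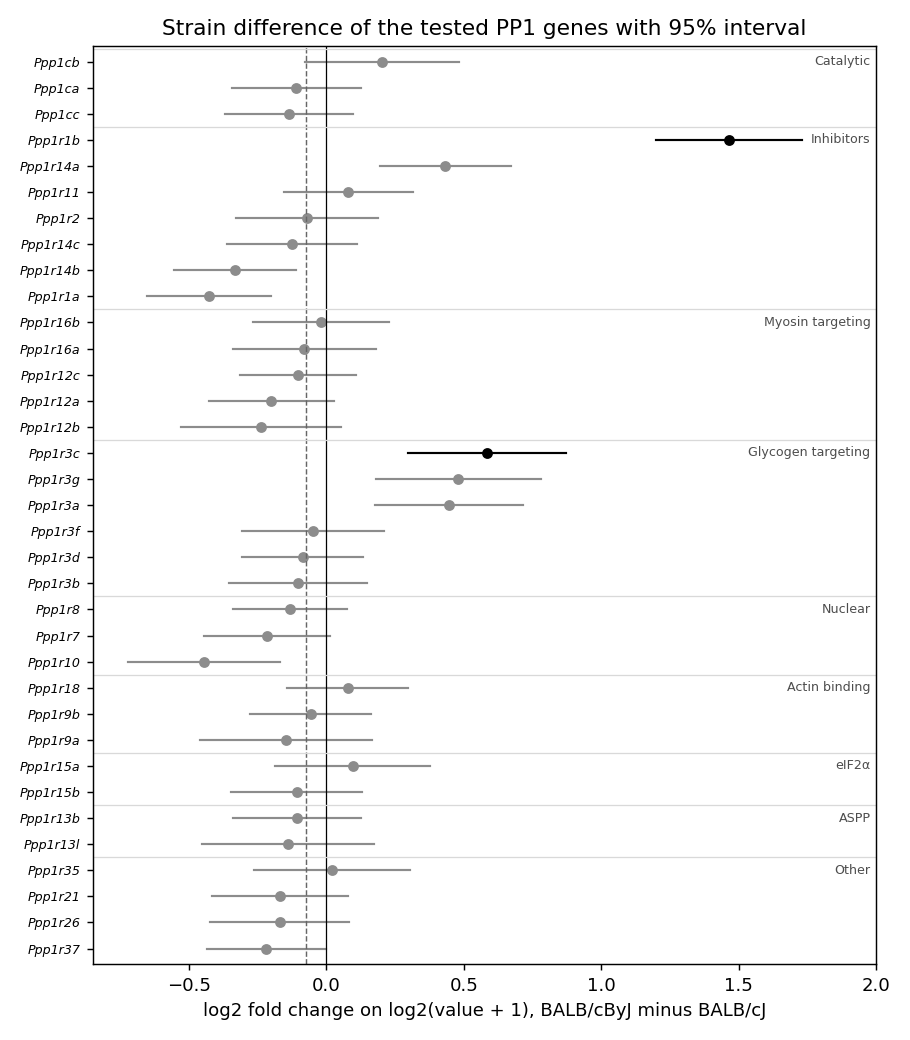
Log2 fold change (BALB/cByJ minus BALB/cJ, on log2(value + 1)) of the 35 tested PP1 genes by role, with 95% intervals from limma. Black marks the called genes Ppp1r1b (1.46) and Ppp1r3c (0.58), and the dashed line is the median of all tested genes (-0.07).

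To see whether the difference of Ppp1r1b was shared along the chromosome, the genes within 500 kb on either side were examined. Of 29 in the table, 21 were tested by limma and 0 were called. An unadjusted p under 0.05 was found for 2, against 18.3% of all tested genes. Their log2 fold changes lay between -0.36 and 0.24, with a median of -0.11. Stard3, a cholesterol-binding endosomal protein whose gene begins 0.6 kb past the end of Ppp1r1b, was at 10.8, 12.6 and 12.4 in BALB/cByJ and at 12.1, 12.5, 13.5 and 11.8 in BALB/cJ. Its values overlapped between strains (log2 fold change -0.06, 95% interval -0.28 to 0.16, limma adjusted p = 0.787). The next gene, Tcap, which encodes the Z-disc protein telethonin, was at 191 to 222 and 144 to 208 (log2 fold change 0.24, limma adjusted p = 0.332). On the other side, Gm33099 and Neurod2 had no value above 0.03, and Cdk12, the nearest gene tested there at 67.3 kb, had a log2 fold change of -0.20 (limma adjusted p = 0.464). The intervals of all 21 neighbors lay below that of Ppp1r1b.

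**Figure D5:**
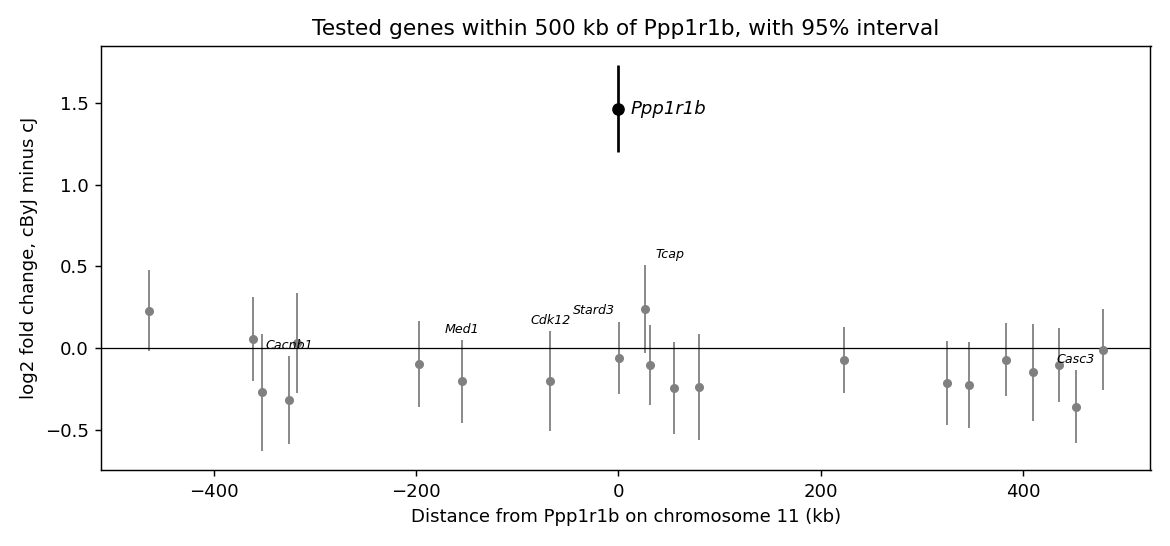
Log2 fold change with 95% interval of the 21 tested genes within 500 kb of Ppp1r1b, by distance in kb (negative, toward smaller coordinates). Ppp1r1b (black) is at 1.46 and the neighbors (gray) are between -0.36 and 0.24.

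DARPP-32 and inhibitor-1 are switched by receptors, kinases and phosphatases, of which 26 were listed, and 22 were tested. Of these 0 were called higher and 1 was called lower, beside 0.771% and 0.881% of all tested genes. The median log2 fold change was -0.09. The called gene was Drd2, a dopamine receptor that lowers cAMP. It was at 1.23, 0.84 and 0.64 in BALB/cByJ and at 2.67, 2.42, 2.17 and 1.76 in BALB/cJ. Each BALB/cJ pool was higher, but the level was low (log2 fold change -0.78, standard error 0.14, limma adjusted p = 0.0136), and the call was lost without BALB/cByJ 3 (0.0822), with no filter (0.0803) or when the Y-linked sum was added as a covariate (0.187). Drd1 had no value of at least 0.5 in any library. Adcy6, an adenylyl cyclase of cardiomyocytes, was at 26.6 to 36.1 in BALB/cByJ and 37.5 to 49.7 in BALB/cJ, and was not called (log2 fold change -0.47, limma adjusted p = 0.0722). Prkaca, the PKA catalytic subunit, was at 153 to 180 and 185 to 203 (limma adjusted p = 0.323). Markers of neurons and brown fat were low, since 7 of 10 neuronal and glial markers, Snap25, Syt1 and Th among them, and 4 of 6 brown fat markers, Ucp1 and Adipoq among them, had no value of 0.5 in any library. The summed level of the neuronal and glial markers was 4.09 to 4.41 in BALB/cByJ and 3.93 to 5.0 in BALB/cJ. The brown fat sum was 41.4 to 46.7 and 31.9 to 37.6, nearly all of it from Cidea. Of the brown fat markers tested, Cidea was higher in every BALB/cByJ pool (log2 fold change 0.38, limma adjusted p = 0.0845) and Prdm16 was lower in every one (-0.31, 0.223), and neither was called. The part of brown fat in the level of Ppp1r1b was not tested.

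Proteins that PP1 or its complexes are known to act on were examined through 20 of their genes, all tested. Most encode muscle proteins, with Eif2s1, Rb1 and Nedd4l among the others. Of these 20, limma called 0, and 3 had an unadjusted p under 0.05, all higher in BALB/cByJ. Over all tested genes 18.3% had such a p, 5.06% higher and 13.3% lower. Phospholamban, the inhibitor of the calcium pump that PP1 dephosphorylates, is encoded by Pln and was at 3167, 2467 and 2892 in BALB/cByJ and at 1680, 2136, 2425 and 2401 in BALB/cJ. The log2 fold change was 0.40 and was not called (limma adjusted p = 0.231). The phosphorylase kinase subunit gene Phkg1 was at 1.42, 1.86 and 1.95 in BALB/cByJ and at 0.68, 1.26, 0.87 and 1.10 in BALB/cJ (log2 fold change 0.48, limma adjusted p = 0.0903), and the brain-type glycogen phosphorylase gene Pygb had a log2 fold change of 0.28 (limma adjusted p = 0.235). RNA levels do not show the phosphorylation of any of these proteins.

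Among 23 tested PP1-binding proteins with other symbols, limma called 0. An unadjusted p under 0.05 was found for 5 (2 higher and 3 lower), against 18.3% of all tested genes. The smallest p was that of Cdca2, which encodes Repo-Man, a chromatin-targeting subunit in mitosis, at 4.35, 5.37 and 6.70 in BALB/cByJ and 7.76, 6.75, 7.19 and 8.24 in BALB/cJ (log2 fold change -0.40, limma adjusted p = 0.128). Of 28 tested subunits of the related phosphatases PP2 to PP6, 0 were called higher and 1 was called lower. Over all tested genes 1.65% were called. The gene called lower was Ppp4r1 of PP4, at 19.9 to 22.3 in BALB/cByJ and 25.8 to 30.1 in BALB/cJ (log2 fold change -0.44, limma adjusted p = 0.0431). Omitting any single library but BALB/cJ 1 ended that call (limma adjusted p 0.0578 to 0.165). The median log2 fold change of these subunits was -0.07, as for all tested genes.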

How the data were processed

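RNA was isolated by the study from pooled P4 ventricles of BALB/cByJ (3 libraries) and BALB/cJ (4 libraries), and BGI Genomics made and sequenced the libraries. In the 1 table that the authors deposited, each gene has a signal per library, normalized for depth and transcript length (FPKM or TPM, not stated which), rounded to 2 decimals. The submitters' processing notes name the build mm10. No aligner, quantification tool or normalization method is named (not given in the sources used here). Read numbers are not known, so no counting interval is given, and error is judged from the spread between pools alone.

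Genes averaging under 0.5 were dropped. The rest, as log2(value + 1), entered limma (version 3.58.1, under R 4.3.3), which fitted strain alone with a mean-dependent variance. The test was checked on simulated data with independent normal noise. These held no sex imbalance and no shift shared by a whole library, so the check does not cover either. Members and gene lists were chosen with earlier results of these data known. Named were the catalytic subunits, called members, up to 3 members per role with the smallest p and the highest one, the 10 highest members, and for other lists the called genes or those with the smallest p. Drd1, Prkaca, Ppp1ccb, Ppp1r3b, Ppp1r3d, Ppp1r3f, Ppp1r16a, Ppp1r16b, Ppp1r35, Eif2s1, Rb1, Nedd4l and the markers were named after their values were seen. Other settings tried were no filter, a filter at a mean of 2, a pseudocount of 0.1, quantile normalization, TMM scaling without weights (trims of 30% and 5%), a replicate block, a covariate (log2 of the Y-linked sum plus 1), and omission of each library. The replicate block used only the pools numbered 1 to 3 of each strain, so BALB/cJ 4 was left out of that run. Genes were matched to RefSeq by gene ID (41 of 41 members).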

Additional observations from a re-analysis of the deposited data

Results flagged for a closer look

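In BALB/cJ, the only group of 4 pools, 1 pool stood far from the others in 4 of 36 genes examined, as measured by its gap to the nearest pool over the whole range (limit 0.829). Chance gives about 1 in 20 such groups. Ppp1ccb was at 0.21 in BALB/cJ 2, against 11.8 to 13.4 in the other pools. Ppp1r3g was at 1.56 in BALB/cJ 1, against 0.95 to 1.04. Ppp1r15a was at 12.99 in BALB/cJ 4, against 15.4 to 15.6. Ppp1r18 was at 13.7 in BALB/cJ 3, against 12.2 to 12.4. Groups of 3 pools were not examined in this way.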

How the results depend on the processing

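Ppp1r1b kept its call and direction in all 14 alternatives, with a log2 fold change of 1.21 to 1.54 (1.35 to 1.52 with 1 library left out). The number of members called, 2 in the main comparison and both higher in BALB/cByJ, was 1 with no filter, 1 with a replicate block, 1 with the Y-linked sum added (Ppp1r3c lost each time) and 4 with TMM scaling, all higher. With 1 library left out it was 1 to 4, of which 1 to 3 were higher. Ppp1r1a was called only with a mean of at least 2. Same-numbered libraries did not deviate together (correlations of -0.21, -0.29 and -0.03), so the block rests on a shared number alone. The run with the block also lacked BALB/cJ 4. Omitting that library alone already ended the call of Ppp1r3c (limma adjusted p = 0.0905) but not that of Acta2 (0.0339). With the block the call of Acta2 was lost (limma adjusted p = 0.0967). Of 474 values of the other 34 tested members, 24 changed direction, all in genes that were not called. These were Ppp1r9b (0.0194), Ppp1r3f (0.0122), Ppp1r16a (0.0148) and Ppp1r16b (0.065) with quantile normalization, Ppp1r9b (0.0219), Ppp1r2 (0.0132) and Ppp1r16b (0.0491) with TMM scaling, Ppp1r16b (0.051) and Ppp1r35 (-0.043) with the replicate block, and Ppp1cb (-0.0963), Ppp1r11 (-0.0066), Ppp1r35 (-0.0106) and Ppp1r13l (0.0897) with the Y-linked covariate. With 1 library left out, log2 fold changes crossed 0 for Ppp1r2 (-0.1703 to 0.0152), Ppp1r15a (-0.0777 to 0.1878), Ppp1r13l (-0.2302 to 0.0418), Ppp1r3b (-0.2065 to 0.0211), Ppp1r3f (-0.08 to 0.0132), Ppp1r16a (-0.2211 to 0.0239), Ppp1r16b (-0.0561 to 0.051) and Ppp1r35 (-0.1062 to 0.0951). Over all genes BALB/cByJ was called higher in 98 and lower in 112, and in 108 and 49 with quantile normalization, 142 and 59 with TMM scaling, 38 and 20 with the block, 25 and 21 with the covariate, and 23 and 16 with no filter, which tests 17404 genes. Leaving out BALB/cJ 4 with no block gave 50 and 32. The cause of these shifts was not tested. Depth is unknown, and low values limit what can be said of the 6 untested members and of Drd2.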
